A study of Mus musculus with 13 samples.

Results

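The 7 high mobility group (HMG) chromatin genes described here are Hmgb1, Hmgb2, Hmgb3, Hmgn1, Hmgn2, Hmgn3, and Hmga1, found by exact gene name among the 24972 genes listed for each library. Common lymphoid progenitors (CLPs), which give rise to B, T, and NK cells, were sorted from mouse BM by surface markers, and their RNA was read as strand-specific 3′ sequencing libraries, 1 library per mouse. The 13 libraries came from 5 WT mice, 5 Notch1+/- mice with 1 functional allele of Notch1, and 3 Notch1+/dTAD mice, in which 1 allele lacks the transactivation domain (TAD) of the receptor and the other is WT. All mice were on a C57BL/6 background, of both sexes, and 6 to 12 weeks of age. The alleles are germline alleles, so the cells surrounding the CLPs carried them too. The comparisons ask whether losing 1 Notch1 allele, or replacing it with the TAD-less form, changed transcript levels in CLPs.

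HMG proteins are abundant nuclear proteins that bind chromatin without being histones. HMGB proteins carry a pair of HMG boxes that bend DNA, and Hmgb1 and Hmgb2 also assist the RAG recombinase in V(D)J recombination, the rearrangement of antigen receptor genes that begins in lymphoid progenitors. HMGN proteins bind the nucleosome itself and loosen chromatin against linker histone H1, and HMGA proteins bind the minor groove of AT-rich DNA through AT-hooks.

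Levels are in TPM, the authors' normalized transcript abundances, which are scaled for transcript length and sum to 1000000 in each library. The read counts behind them were not used here, so the depth is unknown, and precision was judged from the spread between mice. In the fits below, limma pulls the spread of each gene towards that of genes at similar levels. The number of genes with a value above 0 was 3264 in the sparsest library and 6326 in the fullest. A 0 is given here only as a listed value, because Gapdh, a gene used by nearly every cell, was also listed at 0 in 2 libraries. The CLP markers summed to 5708 to 9541 TPM in WT, 3342 to 10556 TPM in Notch1+/-, and 6242 to 6621 TPM in Notch1+/dTAD libraries. The largest parts of this sum were Dntt, with a mean of 4933 TPM, and Ly6d, with 1281 TPM. Of the genes for the sorting markers, Flt3 was above 0 in 13 libraries, Il7r in 12, Kit in 8, and Ly6a in 5. Their median levels were 142, 84.0, 0.201, and 0 TPM. Of 11 erythroid markers, 9 were at 0 in all 13 libraries and the sum reached at most 17.6 TPM. The 11 myeloid markers summed to 436 to 2461 TPM in WT, 450.3 to 1512 TPM in Notch1+/-, and 366 to 2042 TPM in Notch1+/dTAD libraries. The 8 B cell markers summed to 4.95 to 897 TPM, 14.5 to 1839 TPM, and 79.5 to 1555 TPM in the same order, and the 6 plasmacytoid dendritic markers to 989 to 2775 TPM, 722 to 1834 TPM, and 938 to 3303 TPM. Of 8 T and NK markers, 6 were at 0 in all libraries, and Nkg7 alone reached 1122 TPM in 1 WT library. The part of these other cell types in HMG levels was not tested.

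The HMGB genes are shown first by their promoters. The 3 paralogs differed widely in how steady their transcripts were, and any link of this to promoter sequence was not tested. The RefSeq promoter table (GRCm38.p6, 250 bases before to 50 after a transcript start) held entries for 6 of the 7 members. In the windows below, read 5′ to 3′ on the gene's strand, capitals mark the CCAAT box, searched as CCAAT or ATTGG and known as the letters bound by NF-Y, and the GC box, searched as GGGCGG or CCGCCC and known as the letters bound by Sp1. The Hmgb1 window is chr5:149053008-149053307 on the minus strand, the Hmgb2 window chr8:57511593-57511892 on the plus strand, and the Hmgb3 window chrX:71555667-71555966 on the plus strand.
Hmgb1: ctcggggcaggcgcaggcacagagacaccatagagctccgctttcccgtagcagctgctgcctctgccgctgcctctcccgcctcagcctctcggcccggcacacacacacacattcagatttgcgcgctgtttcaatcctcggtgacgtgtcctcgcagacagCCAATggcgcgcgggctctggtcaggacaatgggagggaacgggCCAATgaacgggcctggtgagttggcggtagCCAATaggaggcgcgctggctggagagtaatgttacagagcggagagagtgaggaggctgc
Hmgb2: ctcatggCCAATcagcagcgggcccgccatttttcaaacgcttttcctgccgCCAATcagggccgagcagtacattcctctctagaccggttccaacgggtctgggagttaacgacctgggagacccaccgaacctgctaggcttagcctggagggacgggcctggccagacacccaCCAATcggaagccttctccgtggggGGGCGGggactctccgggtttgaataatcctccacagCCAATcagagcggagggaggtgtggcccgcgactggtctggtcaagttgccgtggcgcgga
Hmgb3: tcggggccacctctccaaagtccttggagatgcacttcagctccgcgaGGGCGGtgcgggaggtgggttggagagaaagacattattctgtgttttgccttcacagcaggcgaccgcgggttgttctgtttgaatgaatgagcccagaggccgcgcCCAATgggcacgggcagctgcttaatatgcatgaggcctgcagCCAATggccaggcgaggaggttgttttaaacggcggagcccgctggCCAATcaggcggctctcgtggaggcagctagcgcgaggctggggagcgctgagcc
The Hmgb1 window held 3 CCAAT boxes and 0 GC boxes, the Hmgb2 window 4 and 1, and the Hmgb3 window 3 and 1. A second RefSeq start of Hmgb1, with its window at chr5:149051567-149051866, held 0 CCAAT boxes and 4 GC boxes. Of 32851 promoter windows in the table, 37.4% held at least 1 CCAAT box and 35.7% at least 1 GC box. The Hmgn1 window held 2 CCAAT and 5 GC boxes, the Hmgn2 window 1 and 2, and both Hmga1 windows 0 and 4. A match is only a match of letters, and no 2 matches overlapped in any member's window.

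Hmgb1, the most abundant HMGB protein in most tissues, lies on chromosome 5 from 149046702 to 149184489 (minus strand, GRCm38) and was above 0 in all 13 libraries. In WT libraries its TPM were 459.8, 457, 394, 221, and 311 (mean 369 ± 103 SD, n = 5). Notch1+/- libraries held 283, 368, 158, 251, and 207 TPM (253 ± 79.8, n = 5), and Notch1+/dTAD libraries held 341, 357, and 288 TPM (328 ± 36.4, n = 3). The Notch1+/dTAD values lay inside the WT range, whereas 2 Notch1+/- libraries lay below every WT library and the groups still overlapped. A lower level in sorted cells can mean fewer cells of a type or less RNA per cell, and these data cannot tell them apart. By limma on log2(TPM + 1), Hmgb1 differed from WT by a log2 fold change of -0.12 in Notch1+/dTAD (SE 0.65, 95% CI -1.52 to 1.28, adjusted p = 0.996) and by -0.54 in Notch1+/- (SE 0.60, 95% CI -1.83 to 0.74, adjusted p = 0.993). Neither passed the threshold of an adjusted p under 0.05.

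Hmgb2, a paralog enriched in dividing cells, lies on chromosome 8 from 57511907 to 57515999 (plus strand). Its WT levels were 30.6, 74.1, 97.6, 33.0, and 58.0 TPM. Notch1+/- libraries held 43.8, 67.5, 75.5, 58.0, and 36.9 TPM, and Notch1+/dTAD libraries held 57.8, 50.3, and 81.4 TPM. All 8 mutant values lay between the lowest and the highest WT value, and the group means were 58.7, 56.3, and 63.2 TPM for WT, Notch1+/-, and Notch1+/dTAD. The log2 fold changes were 0.21 (SE 1.18, limma adjusted p = 0.996) for Notch1+/dTAD and 0.03 (SE 0.99, adjusted p = 0.998) for Notch1+/- against WT, and quantile normalization turned the first to -0.033. Without WT library 1 the first was 0.018, and without WT library 3 it was 0.43. Hmgb1 exceeded Hmgb2 in 13 of 13 libraries, by 2.09-fold to 15.0-fold.

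Hmgb3, known from hematopoietic progenitors, lies on chromosome X from 71555918 to 71560676 (plus strand) and was the least steady of the 3. In WT libraries it was listed at 54.3, 1090.3, 1.75, 249, and 1076 TPM. Notch1+/- libraries held 638, 171, 2.63, 456, and 684 TPM, and Notch1+/dTAD libraries held 424, 974, and 4.13 TPM. Each genotype thus had 1 library below 5 TPM and at least 1 at 684 TPM or more, so the spread lay within genotypes. Those low libraries held Hmgb1 at 394, 158, and 288 TPM and Hmgb2 at 97.6, 75.5, and 81.4 TPM, so both paralogs were well above 0 there, and Hmgb2 was at its group's highest value in each. The fitted difference from WT was -0.07 on the log2 scale in Notch1+/dTAD (95% CI -4.41 to 4.27) and 0.30 in Notch1+/- (95% CI -3.38 to 3.98), and its sign turned when single libraries were left out.

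The share of the summed HMGB TPM that each paralog held followed Hmgb3. Hmgb3 made up 0.355% to 74.5% of the sum in WT (median 49.5%), 1.12% to 73.7% in Notch1+/- (median 59.6%), and 1.11% to 70.5% in Notch1+/dTAD libraries (median 51.6%). The sum itself ran from 236 to 1622 TPM over the 13 libraries. Hmgb1 was above Hmgb3 in 5 libraries and below it in 8, so the order of these 2 genes was not settled between mice. The plot of stacked levels by library shows this beside the HMGN genes.

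**Figure D1:**
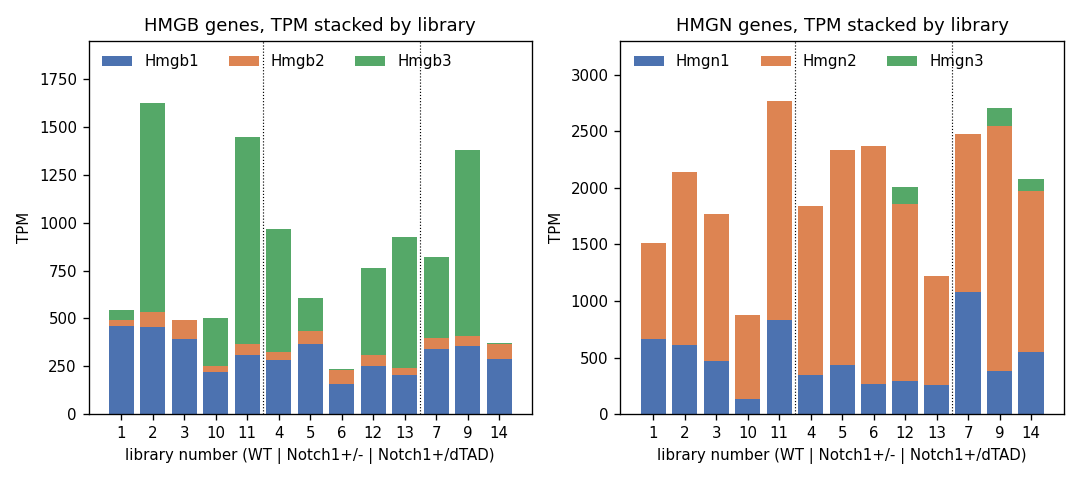
TPM of the HMGB genes (left) and HMGN genes (right), stacked in 1 bar per library, with dotted lines between WT, Notch1+/-, and Notch1+/dTAD. Hmgb3 nearly vanishes in libraries 3, 6, and 14, 1 in each genotype, while Hmgn2 is the largest part of every HMGN bar.

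The coding sequences of the HMGB genes were 73.0% to 76.5% identical in pairwise alignments of GENCODE transcripts, and no stretch of 75 coding bases, the read length, was shared between any pair. Stretches of Hmgb1 and Hmgb2 coding sequence occurred in other annotated genes at 565 of 574 and 531 of 559 positions, as they did at 367 of 529 positions for Hmgb3. Within the last 300 bases of these transcripts, where 3′ reads fall, 0 of 226 stretches were found in another gene for all 3.

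Hmgn2, a nucleosome-binding protein, lies on chromosome 4 from 133964738 to 133968650 (minus strand) and was the highest of the members in 13 of 13 libraries. WT libraries held 853, 1527, 1303, 746, and 1941 TPM (1274 ± 491 SD, n = 5). Notch1+/- libraries held 1493, 1897, 2105, 1560.4, and 959 TPM (1603 ± 438, n = 5), and Notch1+/dTAD libraries held 1392, 2166, and 1429 TPM (1662 ± 436, n = 3). By mean TPM it ranked 108th of 10149 genes above 0 in at least 1 library. The mutants overlapped WT, with log2 fold changes of 0.44 for Notch1+/dTAD (SE 0.44, 95% CI -0.49 to 1.38, limma adjusted p = 0.984) and 0.37 for Notch1+/- (SE 0.40, 95% CI -0.49 to 1.23, adjusted p = 0.993). Of the last 226 stretches of 75 bases in its transcript, 193 (85.4%) also occur in Gm10282, which the tables do not list, and reads from these stretches could belong to either gene.

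Hmgn1, the paralog encoded on chromosome 16 from 96120618 to 96127729 (minus strand), varied more. Its WT levels were 663, 615, 467, 131, and 829.9 TPM. Notch1+/- libraries held 349, 436, 268, 296, and 261 TPM, and Notch1+/dTAD libraries held 1079, 384, and 547 TPM. The 5 Notch1+/- values all lay below 4 of the 5 WT values, but WT library 10, at 131 TPM, lay below them all. The log2 fold change was -0.54 in Notch1+/- against WT (SE 0.63, 95% CI -1.89 to 0.80) and 0.40 in Notch1+/dTAD against WT (SE 0.71, 95% CI -1.12 to 1.93). The first was -0.995 without WT library 10 and -0.33 without WT library 11. Between the mutants it was 0.95 higher in Notch1+/dTAD (SE 0.76, 95% CI -0.63 to 2.52, limma adjusted p = 0.997), and 1 Notch1+/dTAD library lay inside the Notch1+/- range. Hmgn2 exceeded Hmgn1 by 1.29-fold to 5.69-fold in WT, 3.68-fold to 7.86-fold in Notch1+/-, and 1.29-fold to 5.64-fold in Notch1+/dTAD libraries, and these ranges overlapped.

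Hmgn3, an HMGN gene best known from endocrine and neural tissues, lies on chromosome 9 from 83109948 to 83146685 (minus strand) and was listed at 0 in 9 of 13 libraries. All 5 WT libraries were at 0. In Notch1+/- it was at 0 in 3 libraries, at 0.508 TPM in 1 and at 149.5 TPM in 1, and in Notch1+/dTAD at 0, 151, and 101 TPM. Levels were thus either at or near 0 or above 100 TPM, and libraries at 0 occurred in every genotype. With fewer libraries at 1 TPM or more than the filter asked for, Hmgn3 was not tested against WT. Between the mutants the log2 fold change was 3.08 (SE 1.87, 95% CI -0.80 to 6.95, limma adjusted p = 0.997). The genes Gm2065 and Gm29054 overlap Hmgn3 on the other strand, and whether strand was used to assign reads is not given in the sources used here.

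**Figure D2:**
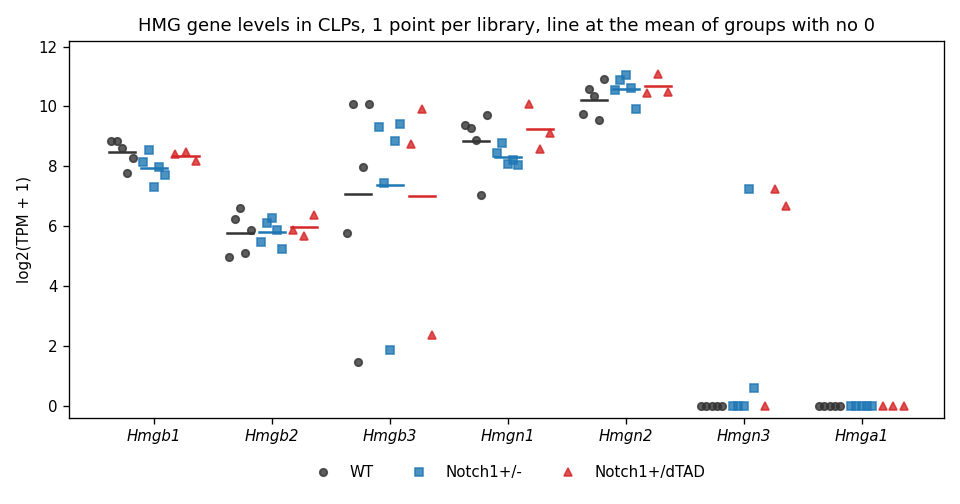
log2(TPM + 1) of the 7 members in each library, by genotype, with a line at the mean of groups in which no library was at 0. Hmgb1, Hmgb2, Hmgn1, and Hmgn2 overlap between genotypes, with Hmgn1 spread from 131 to 829.9 TPM in WT, Hmgb3 runs from 1.75 to 1090.3 TPM, and Hmga1 is at 0 throughout.

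Hmga1, an AT-hook protein of stem and progenitor cells, lies on chromosome 17 from 27556497 to 27563674 (plus strand) and was listed at 0 in all 13 libraries. The tables also list Hmga1b, on chromosome 11 from 120762794 to 120764419 (plus strand), whose transcript matches that of Hmga1 at 1559 of 1589 aligned bases (98.1%) and whose coding sequence of 324 bases is identical. The first 300 coding bases, the same in both genes, are printed to show what no read could tell apart, with the codons of each arginine-glycine-arginine-proline core of the AT-hooks in capitals.
Hmga1: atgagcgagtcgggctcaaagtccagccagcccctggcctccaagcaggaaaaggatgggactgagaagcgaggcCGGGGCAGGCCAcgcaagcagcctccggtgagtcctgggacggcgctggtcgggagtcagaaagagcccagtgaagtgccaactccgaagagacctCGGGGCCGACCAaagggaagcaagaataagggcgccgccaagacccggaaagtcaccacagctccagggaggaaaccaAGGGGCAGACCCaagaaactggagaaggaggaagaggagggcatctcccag
The 300 bases hold 3 such cores. All 226 stretches of 75 bases in the last 300 bases of the Hmga1 transcript occur in Hmga1b, and 202 of 226 (89.4%) in the other direction. Reads of either gene near the 3′ end therefore cannot be assigned to Hmga1 by sequence alone, and the 0 listed for Hmga1 cannot be read as absence of its transcript.

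Hmga1b itself was listed at 216, 340.02, 100.1, 75.2, and 167 TPM in WT libraries. Notch1+/- libraries held 0, 0, 135, 119, and 8.77 TPM, and Notch1+/dTAD libraries held 367, 42.5, and 114 TPM. The genotypes overlapped, with 3 Notch1+/- libraries below every WT library. Its log2 fold change was -3.84 in Notch1+/- against WT (SE 1.56, 95% CI -7.17 to -0.51, unadjusted p = 0.0266 and limma adjusted p = 0.853) and -0.36 in Notch1+/dTAD against WT (SE 1.02, adjusted p = 0.996). Hmga2, a related AT-hook gene, reached 83.1 TPM in WT and 72.3 TPM in Notch1+/-, with 2 libraries at 0 in each, and 20.1 TPM in Notch1+/dTAD, with no library at 0.

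**Figure D3:**
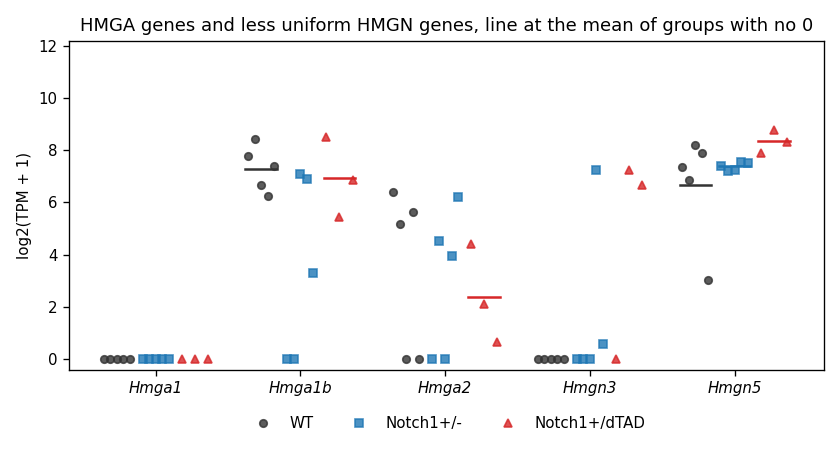
log2(TPM + 1) of Hmga1, its near-identical copy Hmga1b, Hmga2, Hmgn3, and Hmgn5 in each library, by genotype, with a line at the mean of groups in which no library was at 0. Hmga1 is at 0 in all 13 libraries, whereas Hmga1b reaches 367 TPM.

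Across the 3 comparisons, none of the members passed an adjusted p under 0.05 by limma. In Notch1+/dTAD against WT, 5 members were among the 4737 genes tested. Of these 5, 0 passed at an adjusted p, where 0 genes (0%) passed in all, 0 had an unadjusted p under 0.05, against 5.00% of all genes tested, and 0 had groups that did not overlap, against 3.12%. In Notch1+/- against WT, 5 members were among 3178 genes, and the same 3 counts were 0, against backgrounds of 0%, 5.35%, and 0.787%. In Notch1+/dTAD against Notch1+/-, 6 members were among 6281 genes, and the counts were again 0, against 0%, 5.33%, and 3.06%. With 5 or 6 members tested, a count of 0 is near these backgrounds. The authors, with another method, did report differentially expressed genes between WT and Notch1+/dTAD CLPs. The limma fit on TPM called no gene at all, so the absence of calls cannot show that the members were unchanged.

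**Figure D4:**
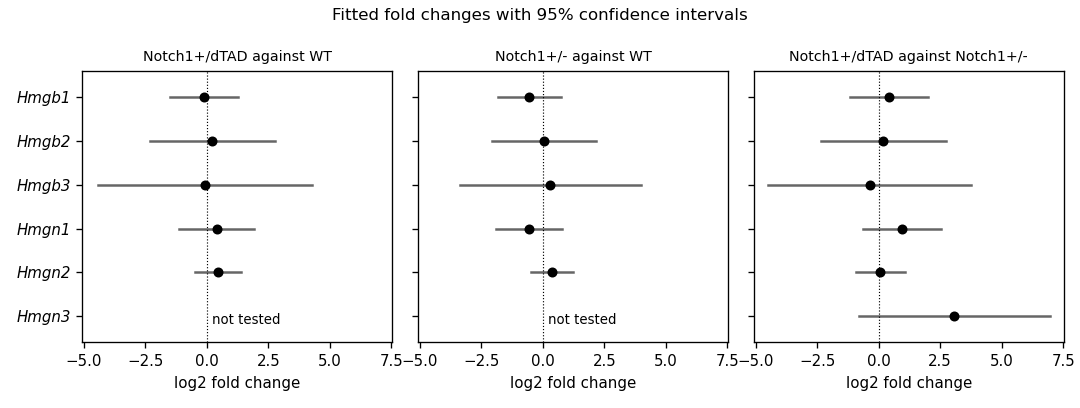
log2 fold change of each tested member (point) with its 95% confidence interval from limma (line) in the 3 comparisons, with 0 dotted. Every interval crosses 0, and those of Hmgn2 are the narrowest, at -0.49 to 1.38 against WT in Notch1+/dTAD.

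The median log2 fold change over all genes tested was 0.47 in Notch1+/dTAD against WT, 0.06 in Notch1+/- against WT, and 0.35 between the mutants. The members' medians were 0.21, 0.03, and 0.30. Quantile normalization brought the medians over all genes to -0.03, -0.03, and -0.02. In Notch1+/dTAD against WT it left Hmgn2 at 0.39, Hmgn1 at 0.38, and Hmgb1 at -0.13, close to their fitted values. Under the same setting Hmgb2 was -0.033 and Hmgb3 -0.93. Hmgb2 and Hmgb3 thus moved down with the median over all genes, whereas Hmgn2, Hmgn1, and Hmgb1 moved little. Whether the members share the shift of that median was not tested. Both comparisons with WT share the WT libraries.

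Hmgb1, Hmgn2, Hmgb2, and Hmgn1 varied less between mice of a genotype than most genes tested. Their SDs within genotype, on the log2(TPM + 1) scale over 13 libraries, were 0.41 for Hmgb1, 0.48 for Hmgn2, 0.55 for Hmgb2, and 0.77 for Hmgn1, whereas the median over the 6281 genes tested was 2.46. Only 0.764%, 1.18%, 1.78%, and 3.73% of those genes had a smaller SD. Hmgn3, at 2.70, was near the median and Hmgb3, at 3.55, exceeded 91.1% of the genes. The same was counted among the 1123 genes with a mean of at least 100 TPM, whose median SD was 2.66, and there 3.92%, 6.06%, 8.82%, and 16.5% lay below Hmgb1, Hmgn2, Hmgb2, and Hmgn1, and 74.3% below Hmgb3. These values describe the libraries and carry no test. There were 772 genes above 0 in every library, among them Hmgb1, Hmgn2, Hmgb2, and Hmgn1. SDs were not compared among those genes alone, and values at 0 may widen the SD of other genes.

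**Figure D5:**
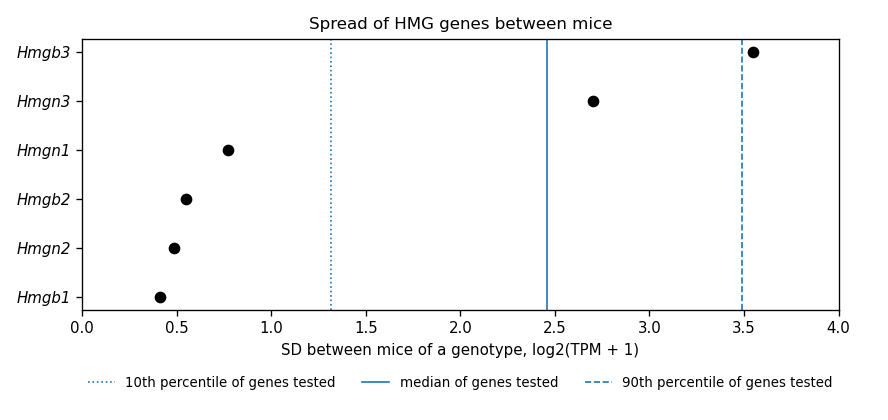
SD between mice of a genotype on the log2(TPM + 1) scale for the 6 members above 0 in at least 1 library, with vertical lines at the 10th percentile, the median, and the 90th percentile of the genes tested. Hmgb1, Hmgn2, Hmgb2, and Hmgn1 lie left of the 10th percentile at 1.32, and Hmgb3 lies right of the 90th at 3.49.

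In order of mean TPM, Hmgn2 (108th of the 10149 genes) was followed by Hmgn1 (273rd), Hmgb3 (292nd), Hmgb1 (392nd), Hmgb2 (1818th), and Hmgn3 (2940th). Hmgn1 was above Hmgb1 in 12 of 13 libraries, whereas Hmgn1 and Hmgb3, with Hmgb3 higher in 7 and lower in 6, had no fixed order. The most constant pair was Hmgn2 and Hmgb2, with a mean log2 level of Hmgb2 minus Hmgn2 of -4.65 and an SD of 0.43 over the 13 libraries.

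The genes whose pattern over the 13 libraries was closest to each member were found by the root mean square difference of centred log2(TPM + 1) among the 772 genes above 0 in every library. Nucks1, which encodes a nuclear DNA-binding protein, was nearest to both Hmgn2 (0.32) and Hmgb2 (0.39), and Hmgn2 was the third nearest gene to Hmgb2 (0.41). The ribosomal protein gene Rpl4 was second for Hmgn2 (0.40), and Rpl11, another ribosomal protein gene, was second for Hmgb2 (0.41). For Hmgb1 they were the nuclear noncoding RNA Malat1 (0.33), the macroH2A gene H2afy (0.34), and the elongation factor gene Eef1a1 (0.36). Against the 0.44 by which Hmgb1 itself varied, these distances are not small, and steady genes lie near each other by this measure. Hmgn1 was closest to the RNA-binding protein genes Hnrnpu (0.52) and Hnrnpd (0.56) and to the respiratory chain gene Ndufb3 (0.55). The nearest gene to Hmgb3, Smim14, was 2.17 away, followed by Atp6ap1 (2.18) and Mndal (2.203). Hmgb3 itself varied by 3.11, so these distances are large partly because its own spread is.

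Further genes of the HMG family and of the processes its members act in showed 0 calls at an adjusted p under 0.05 by limma. Of 8 other HMG family genes, 6 were tested in each comparison. Hmgn5, an X-linked HMGN gene, was listed at 164, 116, 293, 239, and 7.16 TPM in WT, at 169, 148, 152, 188, and 179 TPM in Notch1+/-, and at 239.5, 435, and 320.4 TPM in Notch1+/dTAD libraries. Every Notch1+/dTAD library exceeded every Notch1+/- library in Hmgn5, as was the case in either direction for 3.06% of genes, but not every WT library, and the limma fit gave 0.95 against Notch1+/- (SE 1.12, adjusted p = 0.997) and 1.66 against WT (SE 1.18, adjusted p = 0.964). Hmgxb4, an HMG-box gene ranging from 0 to 92.2 TPM, had an unadjusted p of 0.0256 in Notch1+/- against WT (log2 fold change 3.796, limma adjusted p = 0.853). Hmg20b ranged from 0 to 120.4 TPM. Among 16 other HMG-box genes, the histone chaperone subunit Ssrp1 had the highest mean, 452 TPM, followed by Sox4 at 65.6 TPM, Ubtf at 59.1 TPM, and Smarce1 at 35.6 TPM. Tcf7 and Lef1, HMG-box factors of T cell development, were listed at 0 in all 13 libraries. The counts at an unadjusted p under 0.05 were 0 of 8 tested HMG-box genes against WT in either mutant and 0 of 11 between the mutants, beside 5.00%, 5.35%, and 5.33% of all genes tested.

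Linker histones compete with HMG proteins for nucleosomes. Of 7 genes, 5 were tested in Notch1+/dTAD against WT, 3 in Notch1+/- against WT, and 5 between the mutants, with median log2 fold changes of 1.39, -1.48, and 2.02 beside 0.47, 0.06, and 0.35 over all genes. The medians of the tested myeloid markers, 1.60, -0.99, and 2.64, and of the tested B cell markers, 2.56, -1.17, and 1.07, had the same signs in the same order. So did those of the CLP markers, 0.07, -0.40, and 0.38, and of the proliferation genes. The CLP marker medians were smaller in size than those of the myeloid and B cell markers. A gene's fold change between the mutants is the difference of its fold changes against WT, so these signs are not independent. Other HMG-box and V(D)J recombination genes had other signs. Between the mutants, 7 of 8 tested myeloid markers were higher in Notch1+/dTAD and 1 was lower. Of the higher ones, S100a9 (log2 fold change 6.06, unadjusted p = 0.0139) and Lyz2 (3.48, unadjusted p = 0.0201) had a limma adjusted p of 0.932. The part of myeloid or B cells in the linker histone values was not tested. Libraries were primed with oligo dT, and how fully that captures linker histone transcripts was not tested. Hist1h1b had a mean of 266 TPM, a median of 1.21 TPM, and a range of 0 to 943 TPM. It was above 0 in 9 of 13 libraries. Its unadjusted p by limma was 0.0096 in Notch1+/dTAD against WT (log2 fold change 5.92, SE 1.97, adjusted p = 0.695). For Notch1+/dTAD against Notch1+/- it was 0.00406 by limma (log2 fold change 7.405, SE 2.30, adjusted p = 0.932). Hist1h1e averaged 164 TPM, Hist1h1d 54.7 TPM, and Hist1h1c 10.4 TPM. Of 24 histone variant and chaperone genes, 17 were above 0 in all 13 libraries. The highest were prothymosin Ptma at a mean of 5122 TPM, H2afy at 1885 TPM, nucleophosmin Npm1 at 1683 TPM, and H2afz at 1113 TPM. In Notch1+/dTAD against WT, 20 of 23 tested had a positive and 3 a negative log2 fold change, beside 2928 positive and 1809 negative over all genes, a split that quantile normalization turned to 2314 and 2423. In Notch1+/- against WT, 7 were positive and 13 negative, beside 1635 and 1543 over all genes, and between the mutants 17 were positive and 6 negative, beside 3699 and 2575, or 3103 and 3178 after quantile normalization.

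Of 25 proliferation genes, 23, 22, and 24 were tested in Notch1+/dTAD against WT, Notch1+/- against WT, and between the mutants. Their median log2 fold changes were 0.44, -0.51, and 0.89, and at an unadjusted p under 0.05 there was 1 lower gene in each comparison with WT and 1 higher gene between the mutants, close to the 5.00%, 5.35%, and 5.33% of all genes tested.

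The recombination machinery that Hmgb1 and Hmgb2 assist was present unevenly. Rag1, a subunit of the recombinase, was above 0 in 11 of 13 libraries, with a range of 0 to 61.1 TPM and a median of 7.11 TPM, and Rag2, the other subunit, was above 0 in 6, at up to 29.1 TPM. Rag1 differed from WT by -0.47 in Notch1+/dTAD (SE 2.14) and by 0.0019 in Notch1+/- (SE 1.67) on the log2 scale. Rag2 differed by 0.12 in Notch1+/dTAD against WT (SE 1.42), and it was not tested in Notch1+/-. Dntt, which adds nucleotides at the joints, was high in every library, at 2095 to 9616 TPM, and Xrcc6, a Ku subunit that holds the ends, averaged 131 TPM. Of 10 genes of this list, 5, 3, and 5 were tested in the 3 comparisons, and 0 were called. Hmgb1 outside the cell is sensed by receptors, of which Tlr2 and Ager were at 0 in all 13 libraries and Tlr4 reached 7.57 TPM. Havcr2, another receptor of this list, was above 0 in 2 libraries and reached 138 TPM. Cd24a and Cxcr4, which also bind Hmgb1 or complexes of it, had medians of 102 and 88.7 TPM, and neither was called in any comparison.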

How the data were processed

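RNA from sorted BM CLPs of 5 WT, 5 Notch1+/-, and 3 Notch1+/dTAD mice was sequenced from the 3′ end with strand kept. The authors aligned trimmed reads with STAR to mm10 (GRCm38), and deposited TPM values as a table of WT with Notch1+/- and a table of WT with Notch1+/dTAD, which repeat the same WT values. The tool, annotation, and filter behind the TPM are not given in the sources used here. TPM divide by transcript length, whereas a 3′ protocol reads 1 stretch near the transcript end, so the order of genes depends on that step.

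Values were transformed to log2(TPM + 1) and fitted over all genes with limma 3.58.1 in R 4.3.3 (lmFit, eBayes with trend, 2-sided), with Benjamini-Hochberg adjustment over all genes tested. Genes needed 1 TPM in at least 3 libraries, or 5 for Notch1+/- against WT. The 2 mutants were compared with each other in 1 model of 13 libraries. The script was tested on simulated data. Sequences were compared with Biopython 1.88, positions and transcripts came from GENCODE M21 (GRCm38), and promoters from RefSeq (GRCm38.p6). All 7 members are described, at most 4 genes are named per list, those with the highest means, as are Rag1, Rag2, and the 3 genes nearest to each member, except 1 gene that is not reported here, and others were named after their values were seen. The members and lists were chosen with earlier results of these data known.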

Additional observations from a re-analysis of the deposited data

Results flagged for a closer look

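Hmgn3 in Notch1+/- library 12 stood apart from the other libraries of its genotype, at 149.5 TPM against 0 to 0.508 TPM in the other 4. By Dixon's criterion at 95% on TPM, 1 of the 11 groups of 5 libraries checked stood out in this way. Chance alone gives about 1 in 20 for normally distributed values. That rate does not hold for a group with repeated values at 0, as here.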

How the results depend on the processing

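No member was called under any alternative run, namely a pseudocount of 0.1 or of 10, no filter beyond a value above 0, a mean of at least 10 TPM, median-ratio scaling, quantile normalization, eBayes with no trend, a term for library numbers, other sets of libraries, leaving out each library, and, chosen after seeing the data, each gene's own variance. Of 334 refitted fold changes, 121 equalled the reported value, as where the setting changes only the filter or the variance or leaves out a library of the third genotype, and of the 213 that differed, 24 reversed. Quantile normalization reversed Hmgb2 to -0.033 in Notch1+/dTAD against WT and -0.086 between the mutants, and median-ratio scaling reversed Hmgn2 between the mutants to -0.023. Leaving out 1 library moved Hmgb3 between -1.53 and 2.25 in Notch1+/dTAD against WT, between -1.11 and 1.68 in Notch1+/- against WT, and between -1.83 and 1.96 between the mutants. The sign turned without library 2, 10, 11, or 14 in the first, 1, 3, 4, 12, or 13 in the second, and 4, 13, or 14 in the third comparison. The ranges were -0.049 to 0.73 for Hmgn1 in Notch1+/dTAD against WT (sign turned without library 7 or 10), -0.16 to 0.25 for Hmgb2 in Notch1+/- against WT (1, 5, 6, or 10), -0.013 to 0.33 for Hmgb2 between the mutants (14), and -0.14 to 0.18 for Hmgn2 between the mutants (9 or 13). With no turn of sign, Hmgb1 ran from -0.29 to -0.028 in Notch1+/dTAD against WT, from -0.72 to -0.39 in Notch1+/- against WT, and from 0.27 to 0.57 between the mutants, Hmgn2 from 0.24 to 0.62 and from 0.20 to 0.55 in Notch1+/dTAD and Notch1+/- against WT, and Hmgn1 from 0.53 to 1.28 between the mutants. Hmgn3 ran from 1.77 to 5.40 between the mutants, lowest without library 9 and highest without library 7, and without library 12 it no longer passed the filter. Over all genes, 0 were called in each comparison, but 15, 2, and 3 were called by eBayes without trend and 42, 5, and 8 with each gene's own variance. The cause was not tested. With its own variance, Hmgb1 in Notch1+/- against WT had a narrower 95% CI, -1.21 to 0.12 (adjusted p = 0.959). In Notch1+/dTAD against WT, SEs from each gene's own variance were 0.28 for Hmgb1, 0.45 for Hmgb2, and 2.75 for Hmgb3. The limma SEs of these genes were 0.65, 1.18, and 2.02. For Hmgn1 and Hmgn2 they were 0.70 and 0.38 with own variance, beside 0.71 and 0.44. No paired analysis was possible because library numbers are not shared between genotypes. Depth is unknown, so values listed at 0 have no upper limit here.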

Other observations

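Single genes of the lists, chosen after their values were seen, had small unadjusted p-values and no adjusted p under 0.05 by limma. The histone chaperone gene Asf1b had a log2 fold change of 7.31 between the mutants, higher in Notch1+/dTAD (SE 1.89, unadjusted p = 0.000871, adjusted p = 0.635). Daxx, a chaperone of histone H3.3, had 5.53 in Notch1+/dTAD against WT (SE 2.02, adjusted p = 0.84). Dclre1c, which opens the hairpins made in V(D)J recombination, had 3.59 between the mutants (SE 1.38, adjusted p = 0.932).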
